A study of Drosophila melanogaster
Mus musculus with 36 samples.

Results

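The Drosophila melanogaster hairpin mir-282 yields a miRNA from either strand, and these are entered in the count files as dme-mir-282-5p and dme-mir-282-3p. These 2 entries were picked by name from 372 fly entries and from 2038 entries of both species. Their behaviour after oxidation at the 1:1 mixing ratio was already known when they were picked, so the 1:1 libraries are described here without a test. The tests use the libraries mixed at 1:10, 1:100 and 1:1000. In a RefSeq gene table of the Release 6 fly assembly, which is not the build named in the submitters' processing notes, the mir-282 gene lay on chromosome arm 3L inside the non-coding gene lncRNA:CR43626. The protein-coding genes next to it were CG43389 and ckd, and the nearest other miRNA gene was mir-955.

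Small RNAs were sequenced from mixtures of fly and mouse RNA. All fly RNA came from cultured S2-S cells of genotype DmHen1-KO; FLAG-MYC-AthHEN1, which lack the fly methyltransferase Hen1 and express the Arabidopsis enzyme HEN1, and all mouse RNA came from embryonic stem (ES) cells of the single clone AN3-12. Fly and mouse RNA were mixed at 1:1, 1:10, 1:100, 1:1000, 1:10000 and 1:100000, and a portion of each mixture was oxidised with sodium periodate while another portion was left untreated. The 12 groups of treatment and ratio held 3 libraries each. The promoter that drives HEN1 is not given in the sources used here, nor is it stated whether the fly line is a clone or whether the replicates came from separate cultures. The p-values therefore measure the spread between these libraries, which may be technical.

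In animals a miRNA hairpin is cut by Dicer into a duplex of a 5p and a 3p strand. An Argonaute protein keeps the strand that guides it, and the passenger strand is usually degraded, so that a hairpin as a rule has a dominant arm. Plant HEN1 places a methyl group on the terminal ribose of miRNA duplexes, whereas fly Hen1 acts on single strands held by Argonaute proteins. Periodate destroys unmethylated 3′ ends, which then cannot be ligated to the adapter, so oxidised libraries are drawn mainly from methylated RNAs. In flies mir-282 has been tied to viability and egg laying, and the adenylate cyclase gene rutabaga has been described as a target.

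Total miRNA counts ran from 326776 to 16619583 in the 18 untreated libraries and from 3654 to 1312984 in the 18 oxidised libraries. Fly counts ran from 138 to 1580025 and from 275 to 1165619. The 5 S2 cell markers made up 42.0% to 60.5% of fly counts in the untreated 1:1 libraries and 24.9% to 28.0% in the oxidised ones. Of 5 markers of other fly tissues 3 were listed, and they summed to at most 0.0241% of fly counts at 1:1 in either treatment. The 6 ES cell markers made up 49.1% to 66.8% of mouse counts in the untreated 1:100000 libraries, against at most 0.367% for the 5 listed markers of other mouse tissues. The deletion of Hen1 cannot be checked in miRNA counts.

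In 3 libraries mir-282 stood apart from the rest of its group. Untreated 1:1000 replicate 2 had 49 reads of 5p and 102 of 3p, so that 67.5% of its mir-282 reads were 3p (95% Wilson interval 59.7% to 74.5%). In untreated 1:100000 replicate 1, with 86 reads of 5p and 108 of 3p, the share was 55.7% (48.6% to 62.5%). Oxidised 1:10000 replicate 1, with 36 and 24 reads, had a 3p share of 40.0% (28.6% to 52.6%). These intervals cover counting error only. Each went against the other 2 libraries of the same treatment and ratio. Across the other fly hairpins whose arm ratio clearly differed between treatments at 1:1 (by at least 1 on the log2 scale, with at least 10 reads of the hairpin in the library), the ratio was nearer to the oxidised than to the untreated 1:1 value in 4 of 14, 11 of 16 and 5 of 11 hairpins of these 3 libraries. For comparison, this count was 1 or 2 of 25 in the untreated 1:10 libraries and 18 of 25, 20 of 23 and 22 of 25 in the oxidised 1:10 libraries. In untreated libraries it was 2 of 23, 5 of 22 and 4 of 25 at 1:100. It was 2 of 19 and 2 of 20 in untreated 1:1000 replicates 1 and 3, and 5 of 7, 0 of 3 and 1 of 11 in the untreated 1:10000 libraries. At the dilutions of the last 2 libraries the treatments were less distinct. The count was 5 of 21 and 13 of 21 in oxidised 1:10000 replicates 2 and 3, so replicate 1 did not stand apart from them in these other hairpins. It was 3 of 4, 4 of 16 and 7 of 14 in the oxidised 1:100000 libraries, and at most 2 hairpins could be compared in each of the other untreated 1:100000 libraries.

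From 1:1 to 1:1000 the arm with more reads was 5p in the untreated libraries, except 1:1000 replicate 2, and 3p in all 12 oxidised libraries. At 1:100000 no oxidised library had more 3p than 5p reads. At 1:1 the untreated libraries of replicates 1, 2 and 3 held 124622, 3705 and 56109 reads of 5p against 29731, 1577 and 16742 reads of 3p. The oxidised libraries held 45962, 1079 and 14605 reads of 5p against 86502, 1926 and 19869 of 3p. In every untreated library the 5p arm was ahead, in every oxidised library the 3p arm was, and the 3p share of mir-282 reads was 24.0% ± 5.38 (SD, n = 3) untreated and 62.3% ± 4.12 (SD, n = 3) oxidised.

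The same order held in all libraries of the next ratios. At 1:10 the untreated libraries held 17655, 5127 and 42896 reads of 5p and 4711, 1911 and 11020 of 3p. The oxidised libraries held 14599, 1089 and 9758 reads of 5p and 28939, 1881 and 14286 of 3p. The 3p share was 22.9% ± 3.71 untreated and 63.1% ± 3.53 oxidised (SD, n = 3 each), and the groups did not overlap. At 1:100 the reads of 5p numbered 2194, 658 and 10152 untreated and 1506, 854 and 238 oxidised. Reads of 3p at this ratio numbered 558, 139 and 2234 untreated and 3596, 1232 and 300 oxidised. The 3p share was 18.6% ± 1.5 untreated and 61.8% ± 7.72 oxidised (SD, n = 3 each), again without overlap.

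At 1:1000 the groups overlapped through a single library. Untreated reads numbered 264, 49 and 666 for 5p and 79, 102 and 198 for 3p. Oxidised reads numbered 33, 1265 and 1740 for 5p and 58, 3514 and 3961 for 3p. The 3p share was 37.8% ± 25.7 untreated and 68.9% ± 4.92 oxidised (SD, n = 3 each). The wide untreated spread came from replicate 2, since replicates 1 and 3 had 3p shares of 23.0% (18.9% to 27.8%) and 22.9% (20.2% to 25.8%).

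Over the 3 tested ratios the log2 ratio of 5p to 3p reads, computed with a pseudocount of 0.5, averaged 1.57 in untreated and -0.88 in oxidised libraries. The change of -2.45 is a 5.45-fold shift toward 3p. Oxidised was lower than untreated in 9 of 9 mixtures, and the SD of the change over these mixtures was 0.82. The exact two-sided permutation test within ratios gave p = 0.0005. Adjusted over the 3 pooled tests of arm ratio, 5p share and 3p share it was 0.00075. That test did not use the pairing of libraries by mixture. Exact sign flips over the 9 mixtures gave p = 0.0039, the smallest value they allow. With single ratios of 3 against 3 libraries the exact permutation p was 0.1 at 1:10, 0.1 at 1:100 and 0.2 at 1:1000, and 0.1 is the smallest value this design allows. Within replicate sets the mean change was -2.89 in set 1, -1.80 in set 2 and -2.65 in set 3, with 3 mixtures in each. Without untreated 1:1000 replicate 2, an omission chosen after its values were seen, the change was -2.76.

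**Figure D1:**
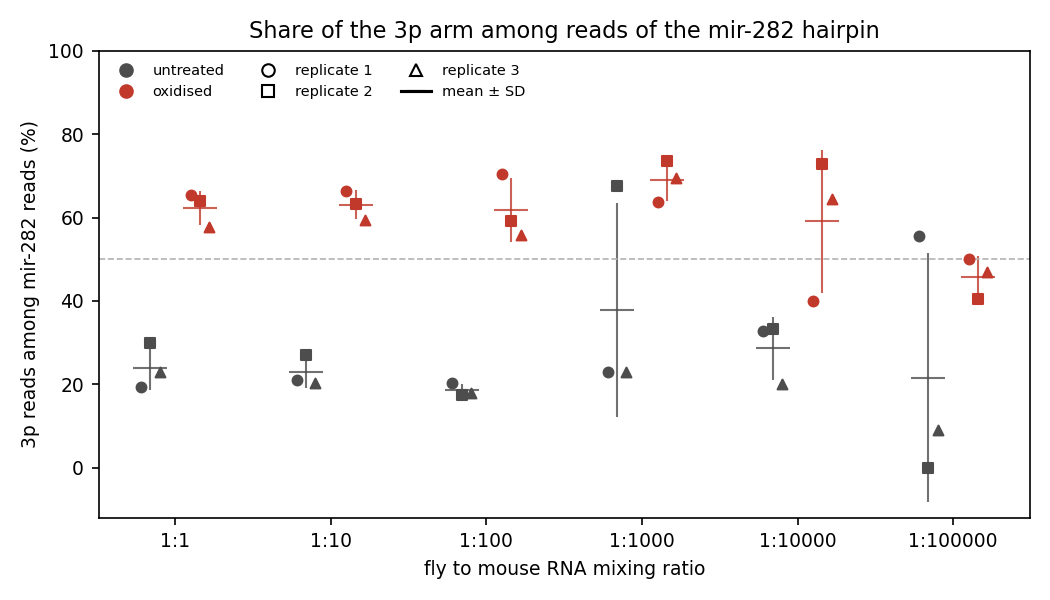
Percent of mir-282 reads that were 3p (vertical axis) in each library at the 6 fly-to-mouse mixing ratios (horizontal axis). Points are single libraries and bars are mean ± SD of 3; from 1:1 to 1:1000 the oxidised libraries lie between 55.8% and 73.5% and the untreated ones between 17.4% and 67.5%, with 1 untreated library at 1:1000 among the oxidised ones.

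The highest dilutions had few mir-282 reads and are given as values. At 1:10000 untreated libraries held 37, 14 and 64 reads of 5p and 18, 7 and 16 of 3p, and oxidised libraries held 36, 381 and 456 of 5p and 24, 1018 and 825 of 3p. The 3p share was 28.7% ± 7.53 untreated and 59.1% ± 17.0 oxidised (SD, n = 3 each), and the groups did not overlap. At 1:100000 untreated libraries held 86, 6 and 10 reads of 5p and 108, 0 and 1 of 3p, and oxidised libraries held 12, 100 and 45 of 5p and 12, 68 and 40 of 3p. Here the oxidised 3p share was 45.9% ± 4.88 (SD, n = 3) with no library above 50.0%, and the untreated libraries lay on both sides of it, at 55.7%, 0% and 9.09%. The absence of 3p reads in replicate 2 allows a share of up to 2.17% of that library's fly counts (floor of 3 counts). In 17 of all 18 mixtures the 5p to 3p ratio was lower after oxidation, the exception being 1:100000 replicate 1.

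Each arm was then set against all fly miRNA counts of its library. On this scale fewer reads of an arm and more reads of the other fly miRNAs cannot be told apart. Per the labels each mixture was split before oxidation, so the oxidised and untreated libraries of a mixture started from the same fly RNA. The 5p arm made up 5.14% ± 2.72 of fly counts in untreated 1:1 libraries and 4.02% ± 0.515 in oxidised ones (SD, n = 3 each), with overlap. At 1:10 the untreated values were 7.02%, 4.42% and 5.93% and the oxidised values 3.62%, 3.72% and 4.64%, which overlap. At 1:100 they were 6.98%, 5.48% and 5.69% against 3.04%, 3.67% and 3.82%, which do not. At 1:1000 they were 6.54%, 3.69% and 5.41% against 3.89%, 4.81% and 6.87%, and the groups overlapped.

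Pooled over these 3 ratios the log2 share of 5p changed by -0.44 after oxidation, with an SD of 0.53 over mixtures. It was lower in 7 of 9 mixtures (exact permutation p = 0.0195, adjusted 0.0195). This call rested on replicate set 1: the mean change was -0.96 there, -0.15 in set 2 and -0.19 in set 3, and without set 1 it was -0.17 with an adjusted exact permutation p of 0.389. Its size also depended on the most abundant fly miRNA, dme-bantam-3p, which is known to promote growth and block apoptosis in flies. From 1:10 to 1:1000 dme-bantam-3p made up 32.0% to 54.4% of fly counts untreated and 10.7% to 24.1% oxidised. With dme-bantam-3p left out of the fly total the 5p change was -0.93.

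The 3p arm moved the other way. It made up 1.48% ± 0.420 of fly counts in untreated 1:1 libraries and 6.65% ± 0.671 in oxidised ones (SD, n = 3 each), with no overlap. At 1:10 the values were 1.87%, 1.65% and 1.52% untreated and 7.17%, 6.43% and 6.79% oxidised, also without overlap. At 1:100 they were 1.78%, 1.16% and 1.25% against 7.26%, 5.29% and 4.82%, again apart. At 1:1000 they were 1.95%, 7.69% and 1.61% against 6.83%, 13.4% and 15.6%, and untreated replicate 2 lay above oxidised replicate 1. Pooled over the 3 ratios the log2 share rose by 2.01, or 4.03-fold, with an SD of 0.63 over mixtures. It was higher in 9 of 9 mixtures (exact permutation p = 0.0005, adjusted 0.00075), by 1.92, 1.65 and 2.46 in sets 1, 2 and 3. Leaving dme-bantam-3p out of the fly total gave 1.51.

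**Figure D2:**
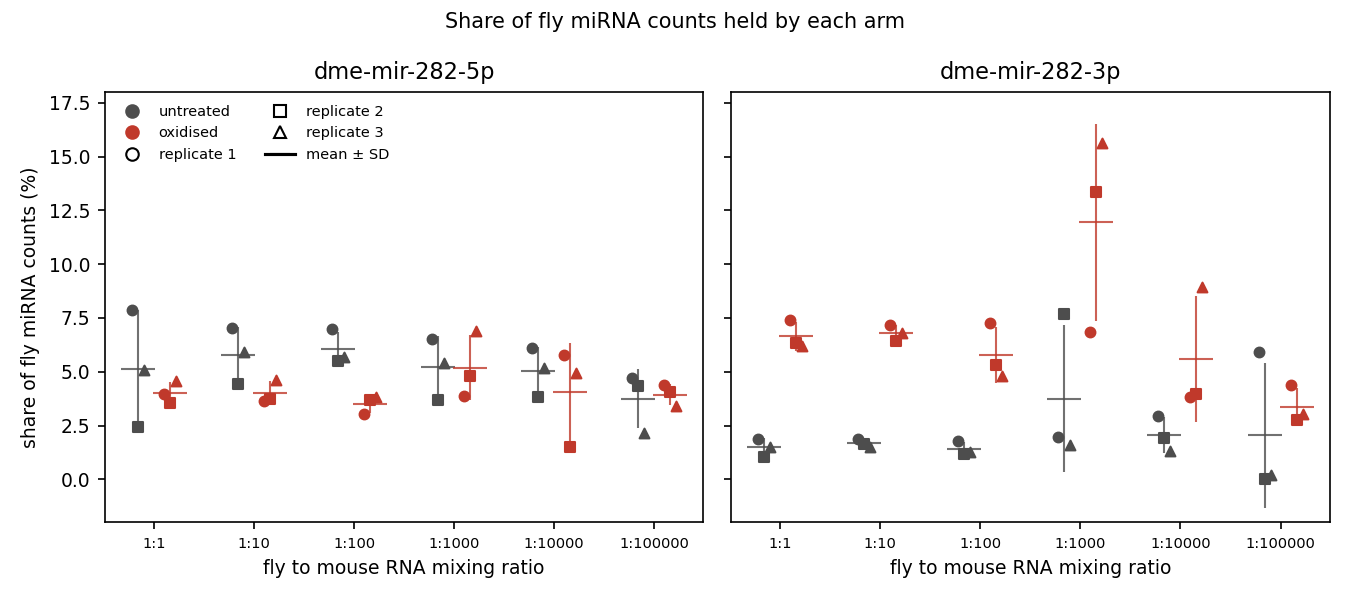
Percent of all fly miRNA counts taken by mir-282-5p and by mir-282-3p (vertical axes) in each library at the 6 mixing ratios (horizontal axes). Points are single libraries and bars are mean ± SD of 3; the oxidised 3p values lie above the untreated ones at 1:1, 1:10 and 1:100, while the 5p values overlap at each ratio except 1:100.

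In rank among fly entries the arms changed places. In untreated 1:1 libraries 5p ranked 2, 8 and 2 by reads and 3p ranked 13, 18 and 14. After oxidation 3p ranked 4 in all 3 libraries and 5p ranked 7, 7 and 6. The hairpin as a whole took 6.62% ± 3.14 of fly counts untreated and 10.7% ± 0.756 oxidised at 1:1, and 7.47% ± 1.41 and 10.8% ± 0.635 at 1:10 (SD, n = 3 each). The highest shares of the hairpin were those of oxidised 1:1000 replicates 2 and 3, at 18.2% and 22.5%.

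From 1:10 to 1:1000 no trend of the arm ratio or of either share with dilution passed the test. The slope of the log2 arm ratio per 10-fold dilution was -0.48 untreated and -0.19 oxidised. For the 5p share the slopes were -0.08 and 0.18, and for the 3p share 0.40 and 0.37. All 6 trends had an adjusted exact permutation p of 0.407. The untreated slopes of the arm ratio and of the 3p share rested on set 2, and without it they were -0.10 and 0.04. Ordered by its mean share, the untreated 5p arm stood highest at 1:100 (6.05% ± 0.814) and lowest at 1:100000 (3.75% ± 1.37), and the oxidised 3p arm stood highest at 1:1000 (11.9% ± 4.57) and lowest at 1:100000 (3.38% ± 0.860; SD, n = 3 each). Neighbours in the order of 5p means differed by less than the sum of their SDs at every step. In the order of oxidised 3p means 1:1000 and 1:10 differed by more than that sum, and the other neighbours by less.

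Set against mouse miRNA counts, the mean level of 5p was lower at each further dilution in untreated libraries, and that of 3p was lower down to 1:10000. Per 1000000 mouse miRNA counts, untreated 5p averaged 33110 ± 11930 reads in the 1:1 libraries, 4667 ± 2026 in those of 1:10 and 520 ± 139 in those of 1:100 (SD, n = 3 each). The mean then went from 80.2 ± 33.7 at 1:1000 to 12.2 ± 7.30 at 1:10000, with 11.0 ± 16.5 at 1:100000 (SD, n = 3 each). The last value was set by replicate 1 with 30.1, since replicates 2 and 3 had 1.78 and 1.16. Untreated 3p averaged 10110 ± 2902 at 1:1, 1374 ± 537 at 1:10, 117 ± 22.8 at 1:100 and 88.6 ± 120 at 1:1000, where replicate 2 had 227 and replicates 1 and 3 had 12.9 and 26.4. It averaged 5.28 ± 4.16 at 1:10000 and 12.6 ± 21.8 at 1:100000, where replicate 1 had 37.8 and the others 0 and 0.116. Oxidised 5p averaged 339000 ± 98820 at 1:1 and 4374 ± 3862 at 1:100000, and oxidised 3p 551700 ± 82020 and 3833 ± 3509. At each ratio every oxidised library stood above every untreated one for both arms.

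**Figure D3:**
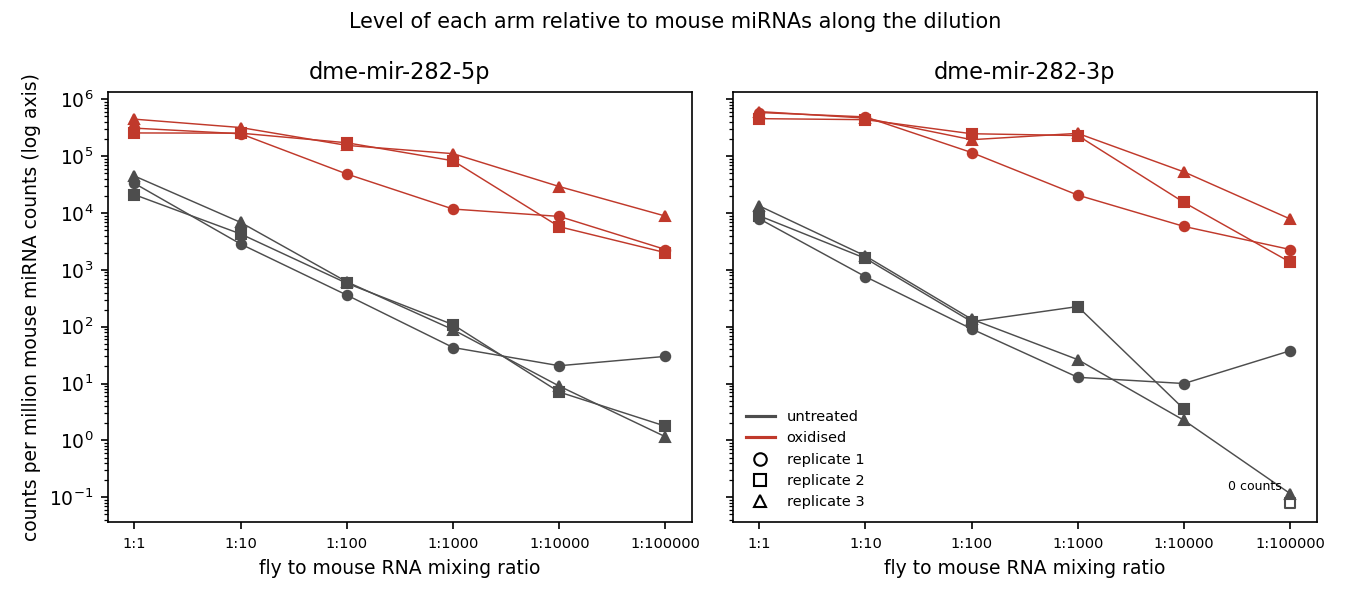
Reads of mir-282-5p and mir-282-3p per 1000000 mouse miRNA counts (vertical axes, log scale) against the mixing ratio (horizontal axes). Points are single libraries, lines join a replicate set, and the open square marks a library with 0 counts of 3p; oxidised libraries lie above untreated libraries at every ratio, and untreated 1:100000 replicate 1 lies above the other untreated libraries of its ratio.

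The gain relative to mouse miRNAs was tested with edgeR over all entries of both species, with library sizes taken from mouse counts. For 5p the log2 change from untreated to oxidised was 5.99 ± 1.23 (SE) at 1:1, where no test is given because the choice of members used that contrast. It was 8.18 ± 1.36 at 1:10, 8.44 ± 1.37 at 1:100 and 9.40 ± 1.43 at 1:1000, and edgeR's adjusted p was 5.84e-06, 5.46e-06 and 2.62e-06. For 3p it was 8.42 ± 1.74 at 1:1, without a test, and 10.66 ± 1.90, 11.14 ± 1.94 and 10.61 ± 1.90 at the next 3 ratios (edgeR adjusted p = 1.80e-05, 1.45e-05 and 2.69e-05). Without untreated 1:1000 replicate 2, an omission chosen after its values were seen, the 3p change at 1:1000 was 12.66. With each replicate set left out in turn, the changes at these 3 ratios lay between 7.61 (1:100 without set 2) and 9.77 (1:1000 without set 1) for 5p and between 10.03 (1:1000 without set 3) and 11.99 (1:1000 without set 2) for 3p, and all passed the edgeR test. Both arms rose, but so did most of the 117 fly entries tested. The share higher was 98.3% at 1:1, 99.1% at 1:10, 94.0% at 1:100 and 82.1% at 1:1000. Shares and counts of entries higher or lower, here and below, are of entries with an edgeR adjusted p below 0.05. An entry could pass the filter on low counts through oxidised libraries alone, so these shares do not cover all 372 fly entries. Without the filter 97 fly entries were higher over the mean of 1:10, 1:100 and 1:1000, against 96 with it. Among the entries tested, the median fly change was 9.18 at 1:10, 9.27 at 1:100 and 9.31 at 1:1000. The 5p arm lay below this median at the first 2 of these ratios, and 3p lay above it at all 3. The place of 5p depended on the filter. Without the filter the fly median over the mean of these 3 ratios was 2.78, with 5p at 7.93 and 3p at 10.12.

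At the highest dilutions the 5p change relative to mouse was 8.71 ± 1.40 at 1:10000 and 7.63 ± 1.34 at 1:100000 (edgeR adjusted p = 8.15e-06 and 5.67e-05). The 3p change was 10.66 ± 1.92 and 7.19 ± 1.67 (edgeR adjusted p = 3.84e-05 and 0.00146). Here 73.5% and 56.4% of the fly entries tested were higher. These values depend on the replicate sets. Without set 1 the 3p change was 13.23 at 1:10000 and 14.49 at 1:100000, and the 5p change was 10.70 and 11.35. Without set 3 the 3p change was 9.05 at 1:10000 and 5.86 at 1:100000, the latter with an edgeR adjusted p of 0.0815, and the 5p change was 7.47 and 6.38. Over the mean of 1:10, 1:100 and 1:1000 the change was 8.67 ± 0.80 for 5p, which ranked 65 among the 117 fly entries, and 10.80 ± 1.10 for 3p, which ranked 9. The edgeR adjusted p was 2.99e-11 and 2.92e-10, and 82.1% of fly entries were higher in this contrast. Without untreated 1:1000 replicate 2 the 3p change over the 3 ratios was 11.49. The size depends on how the mouse counts are scaled. With mouse totals not multiplied by TMM factors, a setting added after the data were seen, the change at 1:10 was 5.88 for 5p and 8.41 for 3p. Over the 3 ratios it was then 7.85 for 5p and 9.995 for 3p, with a median over fly entries of 8.24, and both arms still passed at every ratio from 1:10 to 1:100000.

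Relative to the other fly miRNAs the arms separated. In an edgeR fit of fly entries alone, 3p rose by 1.46 ± 0.30 (log2, SE) over the mean of 1:10, 1:100 and 1:1000 (adjusted p = 0.000122) and ranked 7 of 88, where 22.7% of the entries tested were higher. The 5p arm was lower, with a change of -0.98 ± 0.23 (edgeR adjusted p = 0.000621), where 37.5% of the entries were lower. The entries that fell most were dme-mir-92a-3p, by -9.91, and dme-mir-124-3p, by -9.17. Whether fly counts hold reads of mouse miRNAs was not tested. The median over the 88 entries was -0.31, and with fly totals not rescaled by TMM, a factor computed from the bulk of the entries, it was 0.26. Without that rescaling the 5p change was -0.44 (edgeR adjusted p = 0.0776), so the 5p call depends on it. The 5p call was also lost without the filter on low counts, at -0.65 (edgeR adjusted p = 0.0929), and with DESeq2, at -0.85 (adjusted p = 0.104).

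By ratio, 3p passed this test at 1:10 with 1.46 ± 0.52, at 1:100 with 1.62 ± 0.52 and at 1:10000 with 1.78 ± 0.58 (edgeR adjusted p = 0.0284, 0.0151 and 0.0316), against 6.82%, 18.2% and 6.82% of entries higher. It did not pass at 1:1000, with 1.32 ± 0.52 (edgeR adjusted p = 0.0537), or at 1:100000, with 0.34 ± 0.58 (edgeR adjusted p = 0.827), where 3.41% and 2.27% of entries were higher. The 5p arm passed at 1:10 with -1.08 ± 0.40 and at 1:100 with -1.20 ± 0.41 (edgeR adjusted p = 0.0388 and 0.0191), against 26.1% and 27.3% of entries lower. Its change at 1:1000 was -0.67 ± 0.41 (edgeR adjusted p = 0.219), at 1:10000 it was -0.21 ± 0.43 (0.836) and at 1:100000 it was 0.08 ± 0.46 (1), where 26.1%, 6.82% and 5.68% of entries were lower. At 1:1 the values were 1.53 ± 0.52 for 3p and -0.996 ± 0.40 for 5p, without a test, and 9.09% of entries were higher and 18.2% lower. These calls at single ratios depend on the settings. With DESeq2 none of them passed (adjusted p from 0.14 to 1). For 3p the edgeR calls at 1:10, 1:100 and 1:10000 were lost without set 2 (adjusted p = 0.0987, 0.109 and 0.421) and without set 3 (0.127, 0.0893 and 0.819). At 1:10000 the 3p call was also lost without TMM (edgeR adjusted p = 0.121) and without the filter on low counts (0.374). For 5p the edgeR calls at 1:10 and 1:100 were lost without TMM (adjusted p = 0.243 and 0.0907), without the filter (0.408 and 0.180) and without set 3 (0.264 and 0.113). At 1:10 the 5p call was also lost without set 1 (edgeR adjusted p = 0.121) and without set 2 (0.0940). At 1:1000 3p did pass in edgeR without TMM (adjusted p = 0.0264), without the filter (0.00808), without set 1 (0.00187) and without set 2 (0.0492). It did not pass there without set 3 (edgeR adjusted p = 0.311) or with DESeq2 (adjusted p = 0.599). Leaving out untreated 1:1000 replicate 2, chosen after its values were seen, gave 3p at 1:1000 a change of 2.59 (edgeR adjusted p = 0.00221). In the same fit 3p at 1:10000 lost its call with 1.56 (edgeR adjusted p = 0.0633), and so did 5p at 1:10 with -0.76 (0.107).

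A set of 45 fly hairpins had a mean of at least 10 counts for each arm, over all 36 libraries or over those of 1:1 alone. Some of these hairpins may therefore have had few reads at the tested ratios. Among the 45, mir-282 had the 3rd most negative change of the log2 ratio of 5p to 3p. Its change in a limma fit over all hairpins was -2.45 ± 0.46 (SE, adjusted p = 5.02e-05) over the mean of 1:10, 1:100 and 1:1000, where 46.7% of hairpins passed in either direction and 13.3% toward 3p. The limma value was -2.54 ± 0.80 at 1:10 (adjusted p = 0.0200), -2.84 ± 0.80 at 1:100 (adjusted p = 0.00722) and -1.97 ± 0.80 at 1:1000 (adjusted p = 0.107), where 20.0%, 26.7% and 6.67% of hairpins passed. The 2 hairpins next below it were mir-305 with -2.51 ± 0.65 and mir-999 with -2.47 ± 0.51. Next above it were mir-306 with -2.14 ± 0.74, mir-34, linked in flies to ageing of the brain, with -1.85 ± 0.46, and mir-1006 with -1.59 ± 0.70, the last of which did not pass (limma adjusted p = 0.0563). By size without regard to sign mir-282 ranked 8 of 45.

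In each hairpin the arm with fewer reads in untreated 1:1 libraries was taken as the less abundant arm, which for mir-282 is 3p. This arm gained in 30 of the 45 hairpins over the mean of the 3 tested ratios, and 17 of these passed the limma test, against 4 that passed in the other direction. The median change of the less abundant arm was 1.16 (log2 relative to its partner), and that of mir-282-3p, 2.45, ranked 7. The less abundant arm held most reads of its hairpin after oxidation, and not before, in 7 hairpins at 1:10 and 1:100, and mir-282 was 1 of them with a 3p share that went from 20.7% to 62.4%.

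**Figure D4:**
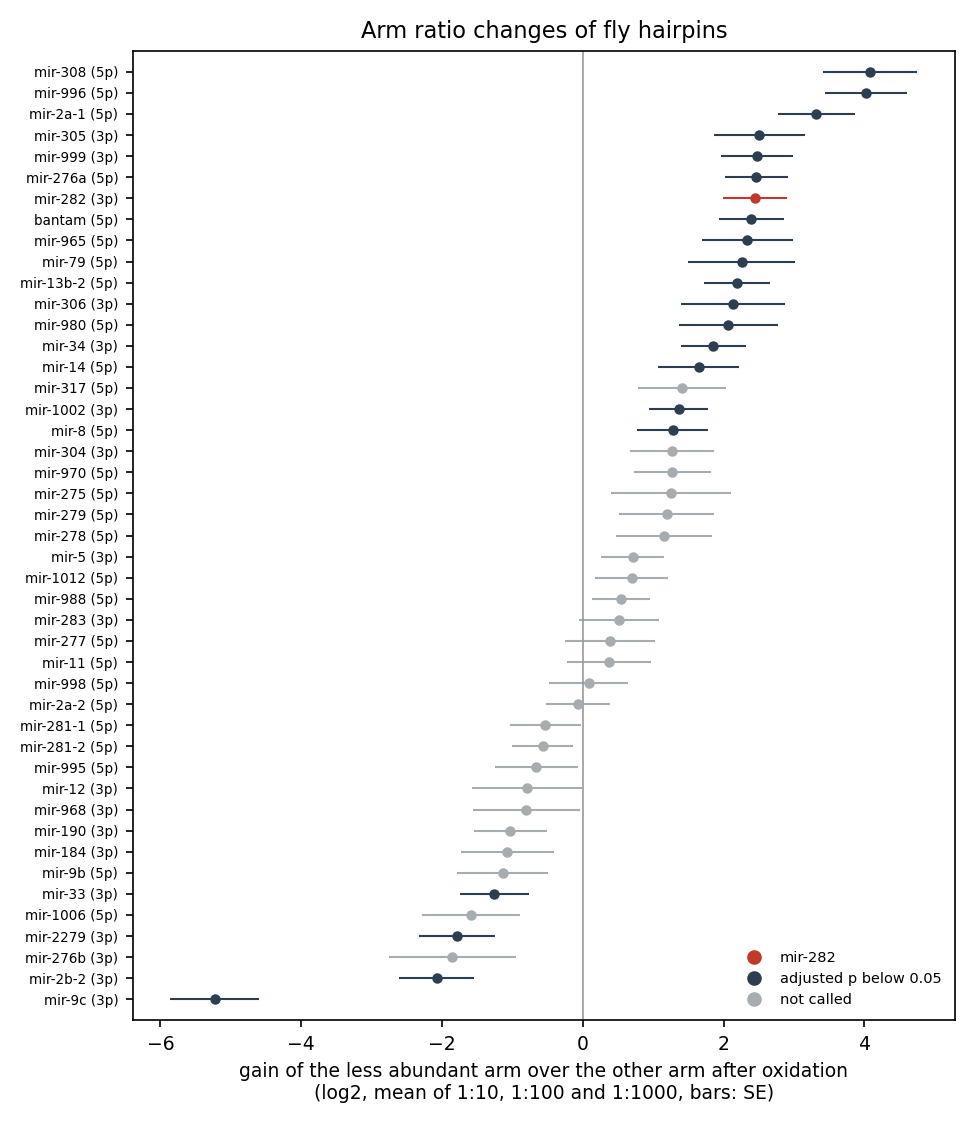
Change of the less abundant arm relative to the other arm from untreated to oxidised libraries (horizontal axis, log2, mean of 1:10, 1:100 and 1:1000) for 45 fly hairpins in rank order (vertical axis, less abundant arm in parentheses). Points are estimates and bars standard errors of the limma fit, dark where the adjusted p was below 0.05; mir-282 (red) lies at 2.45 with rank 7, and 30 of 45 hairpins lie above 0.

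Other fly entries followed either arm across libraries. The likeness was Pearson's r of the log2 share of fly counts over the 18 libraries of 1:1, 1:10 and 1:100, among 101 entries. These points share the fly total and the 2 treatments, so r is a description only. Closest to 5p were dme-mir-276a-3p (r = 0.911), dme-mir-965-3p (0.815), dme-mir-308-3p (0.802), dme-mir-970-3p (0.768) and dme-mir-1002-5p (0.724). Closest to 3p were the 5p arms of dme-mir-276a and dme-mir-276b (0.980 each, with the same counts, so their reads cannot be told apart), dme-mir-988-5p (0.961), dme-mir-8-5p (0.958) and dme-mir-33-5p (0.953). The 3p entry of mir-276a thus stood nearest to mir-282-5p, and the 5p entries that mir-276a shares with mir-276b stood nearest to mir-282-3p. Between the 2 arms of mir-282 r was -0.458.

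A pair of wider lists gives the setting of these changes. Of 31 miRNAs abundant in S2 cells 30 were tested relative to mouse and all 30 were higher by edgeR, with a median log2 change of 8.36 against 9.0 for all fly entries tested. The share higher over all 117 fly entries was 82.1%. Relative to fly 4 of 28 were higher and 15 lower, where 22.7% of all 88 entries were higher and 37.5% lower, with a median of -0.93 against -0.31. Of 45 less abundant arms 42 were tested relative to mouse and 38 were higher, where 82.1% of all fly entries were, with a median of 9.82. Relative to fly 13 of 30 were higher and 4 lower, against the same 22.7% and 37.5%, with a median of 0.65. An arm can pass the filter on low counts through oxidised libraries alone, and arms that stayed low may have been dropped. The counts of this list are therefore a description only. The 5p arm of mir-282, at -0.98, lay near the median of the first list, and 3p, at 1.46, lay above that of the second.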

How the data were processed

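The deposited files hold expected counts, estimated read numbers per miRNA arm that may be fractional and are not scaled to depth, per the file headers. The builds dm3 and mm10 and the tools HTSeq 0.6.1p1 and cutadapt 1.2.1 appear in the submitters' processing notes without a role, and the aligner is not given in the sources used here. All 72 values of the mir-282 arms were whole numbers. Small RNAs of a fixed size range were selected and ligated to adapters with 4 random nucleotides, per the labels' protocols. How reads that match several entries were shared is not given, so near-identical miRNAs are uncertain. Replicate 1 lists 1781 of the entries, and the 257 it lacks, with at most 6 counts elsewhere, were set to 0.

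The members and lists were chosen with earlier results of these data known. Replicate 1 is the set whose labels carry no number. It was sequenced on another instrument model and held a different mass of RNA than sets 2 and 3, so the set is the batch given by the labels. Per the labels each mixture was split before oxidation, so libraries of the same number and ratio come from 1 mixture. The deviations of 300 entries from group means had a median r of 0.243 over the 18 pairs, with 12 above 0.1 and 11 best with their own number. No 2 libraries were copies, since over 630 pairs the chi-square per degree of freedom was at least 2.91.

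Arm ratios and shares were compared by exact two-sided permutation within ratios (8000 arrangements, smallest p 0.00025), trends by permuting ratios within sets (216 arrangements), and p-values were adjusted by Benjamini-Hochberg. The edgeR 4.0.16 quasi-likelihood fits (R 4.3.3) took rounded counts of all 36 libraries, 1 mean for each group, the filter filterByExpr (minimum count 10) and Benjamini-Hochberg adjustment, called at 0.05. Library sizes were mouse totals (576 entries tested, 117 of them fly) or fly totals (88 tested), each times TMM factors. The standard error is the log2 change divided by the square root of F. The limma 3.58.1 fit used log2 ratios of 45 hairpins. These fits were tested on simulated data with 5 seeds. There the fit relative to mouse shifted unchanged entries toward lower values after oxidation. When a large part of the entries changed, it called too many unchanged ones. The counts simulated for that fit held no gain of fly over mouse entries. They therefore cannot show the size or sign of a shift in the real fit. The arm fit missed some changed hairpins. Alternatives were pseudocounts, filters, scalings, DESeq2 1.42.0, a replicate block and omitted sets. Named entries were the members, the 5 entries most like each arm, and up to 3 hairpins on each side of mir-282. A part of the rule on entries with a shared seed was not used here.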

Additional observations from a re-analysis of the deposited data

How the results depend on the processing

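The shift of the arm ratio and the gain of 3p as a share of fly counts kept their direction and their side of 0.05 under every alternative run, with changes of -2.77 to -2.23 and 1.51 to 2.25. The 5p share change ranged from -0.58 to -0.17 over the omitted replicate sets and lost its call without replicate set 1, and the cause was not tested. Single libraries left out in turn, added after the data were seen, changed no call of these 3 results. With the oxidised and untreated libraries of each mixture paired (replicate block, exact sign flips over 9 mixtures) the adjusted permutation p was 0.00586 for the arm ratio, 0.0469 for 5p and 0.00586 for 3p. Among the calls of the mir-282 arms the block moved that of 3p relative to fly at 1:1000, to 1.35 with an edgeR adjusted p of 0.0317, and no other. With it 96 entries were higher relative to mouse, 22 higher and 34 lower relative to fly, and 22 hairpins were called.

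With 1:1 included the untreated 5p trend turned to 0.051 (adjusted permutation p 0.620). DESeq2 was run on all entries with reads, without the edgeR filter on low counts. It called 152 fly entries higher relative to mouse, against 96 of the 117 that edgeR tested. Relative to fly it called 11 higher and 21 lower, against 20 and 33 of the 88 that edgeR tested. These counts come from unlike sets of entries. Hairpins called, 21, ranged from 12 to 22 over the omitted sets, with 12 without set 3, and were 25 without untreated 1:1000 replicate 2. Relative to fly at 1:100000 the 5p change turned to -0.25 without a filter, -0.12 with DESeq2, -0.10 without untreated 1:1000 replicate 2 and -0.17 to -0.10 over the omitted sets, and 3p ranged from -0.12 (without set 3) to 3.49. At 1:1000 5p ranged from -0.69 to 0.16 (without set 1). Of 108 alternative values of the arms relative to mouse 107 kept sign and call, and relative to fly 55 of 96 did. By size of change mir-282 ranked between 5 and 14 among hairpins. Few reads limit the 1:10000 and 1:100000 values.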

Other observations

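The less abundant arm came to hold most reads of its hairpin after oxidation, at 1:10 and 1:100, in 6 hairpins besides mir-282. In dme-mir-308 the 5p share went from 21.9% to 86.0%, in dme-mir-996 from 5.95% to 51.2%, in dme-mir-2a-1 from 12.3% to 67.2% and in dme-mir-14, known in flies as a suppressor of cell death, from 39.2% to 75.0%. Relative to fly, dme-mir-2a-1-3p changed by -2.73 and dme-mir-2a-2-3p by 0.69 over the 3 tested ratios. How reads that match several entries were shared is not given, so the arm shares of dme-mir-2a-1 are uncertain. In dme-mir-999 the 3p share went from 26.1% to 60.4%. In dme-mir-5 it went from 39.3% to 62.0%, and the change of its arm ratio did not pass the limma test over the 3 tested ratios (adjusted p = 0.172). The arm that gained was thus 3p in 3 of these 7 hairpins, mir-282 among them, and 5p in the other 4.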
